A study of Homo sapiens with 47 samples.

Results

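HCT116 is a near-diploid human colorectal carcinoma line. Bulk RNA sequencing of a *NUP58*-edited HCT116 clone and its unedited controls gave 15 libraries, of which 12 are described here, out of 47 libraries in the whole series. The 12 were the libraries titled Clone (3 libraries), WT, EV1 and EV2 (9 libraries, taken as 1 control group) of replicates 1, 2 and 4. WT cells were not transfected, EV1 and EV2 were given Cas9 with no gRNA, and the clone carried a mutated *NUP58* after Cas9 editing. Per the study, transfected HCT116 cells were selected with puromycin and diluted to single cells. The mutant is 1 clone, reported to have mutations of exon 4 on both alleles that bring in premature stop codons, so that the edit and any difference that this 1 cell already carried cannot be told apart. Of the controls, the libraries titled WT and EV1 of replicate 4 carry a genotype label that contradicts the title, although both labels call them unedited.

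The 12 libraries were selected on measured values, since the 3 libraries numbered 3 were left out once their levels had been seen. In number 3, the library labelled EV2 had the low *NUP58* level of the other clone libraries, and the library labelled clone did not. The p-values given here do not account for this choice. With all 15 libraries, 0 of 12960 genes had an adjusted p under 0.05 (limma), 1342 had an unadjusted p under 0.05, and 23 passed an unadjusted p under 0.01 with a fold change over 2, against 175 (1.35%) in the 12 libraries.

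Values were FPKM (fragments per kilobase of transcript scaled to the mapped fragments of the library), and differences were taken on log2(FPKM + 1), a scale on which weakly expressed genes change less than on that of FPKM. Relative depth, read from the value of a single fragment in genes of low FPKM, ran from 0.965 to 1.216 of that of WT replicate 1, and 18020 to 19407 genes were above 0 per library. Across genes, the clone libraries correlated with each other at r = 0.978 to 0.984, the controls at 0.931 to 0.984 and clone with control at 0.941 to 0.972. All 3 clone libraries come from the same clone, and the labels do not say whether replicates are separate cultures, so that p-values measure only the spread between these samples, which may be technical. In bulk RNA, fewer cells of a type and less RNA per cell cannot be told apart. Of 12 colorectal epithelial markers, 6 had a mean FPKM of at least 1 (EPCAM, CDH1, KRT8, KRT18, KRT19 and CDX2), while CEACAM6 was listed at 0 in every library and CDX1 and CEACAM5 at 0 in all controls. Their summed FPKM was 1760 to 1940 in the clone and 1440 to 2370 in the controls. Of 8 blood lineage markers, only GATA2 reached a mean FPKM of 1, and PTPRC and CD34 were listed at 0 throughout.

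Nuclear pore complexes (NPC) are the channels of the nuclear envelope. Their scaffold of inner and outer rings holds nucleoporins rich in phenylalanine-glycine (FG) repeats, which fill the channel. NUP58 is such an FG nucleoporin and forms a central channel complex with NUP62 and NUP54. Karyopherins are the transport receptors that bind cargo, pass through the FG mesh and release or take up cargo according to the state of the GTPase Ran.

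*NUP58* (ENSG00000139496.15) lies on the plus strand of chromosome 13, from 25301524 to 25365390 (GRCh38). Exon 4 of transcript ENST00000381736.8, the exon that is mutated in the clone, is coding over its 150 bases and lies at chr13:25312883-25313032. Its reference sequence is shown because it is the edited site of every clone library.
NUP58 exon 4: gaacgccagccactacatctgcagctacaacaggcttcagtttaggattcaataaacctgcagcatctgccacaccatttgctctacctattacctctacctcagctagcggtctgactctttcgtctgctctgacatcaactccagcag

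The 250 bases before the annotated start are shown for 3 of the genes described below, which were chosen after their values and matches were seen. SP5, a zinc finger gene known as a direct target of Wnt signaling, was higher in the clone, and AP1M2, a clathrin adaptor subunit of epithelial cells, and MISP, an actin-binding spindle gene, were lower. Windows come from RefSeq (GRCh38.p14) and were searched on both strands. Capitals mark CTTTGA or its complement TCAAAG, the core bound by TCF/LEF factors, in SP5, and CAGGTG or CACCTG, the E-box type bound by ZEB1, in AP1M2 and MISP.
SP5 (chr2:170715087-170715336, plus strand): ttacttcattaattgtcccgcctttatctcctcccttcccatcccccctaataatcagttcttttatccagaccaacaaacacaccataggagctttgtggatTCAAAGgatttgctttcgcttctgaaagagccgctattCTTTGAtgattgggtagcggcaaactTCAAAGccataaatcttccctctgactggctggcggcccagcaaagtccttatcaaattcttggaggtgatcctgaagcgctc
AP1M2 (chr19:10587313-10587562, minus strand): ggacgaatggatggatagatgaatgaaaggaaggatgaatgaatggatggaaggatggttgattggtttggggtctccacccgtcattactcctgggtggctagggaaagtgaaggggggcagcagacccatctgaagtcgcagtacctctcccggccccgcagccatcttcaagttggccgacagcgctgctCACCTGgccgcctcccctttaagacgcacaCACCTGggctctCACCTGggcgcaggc
MISP (chr19:750862-751111, plus strand): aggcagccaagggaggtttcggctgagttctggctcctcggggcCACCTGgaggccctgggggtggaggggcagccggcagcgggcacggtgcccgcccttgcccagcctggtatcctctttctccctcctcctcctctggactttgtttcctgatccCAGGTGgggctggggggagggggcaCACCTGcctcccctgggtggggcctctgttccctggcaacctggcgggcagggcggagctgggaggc

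Each of these windows holds 3 matches. Among 35116 promoter windows of this length, 11.2% hold at least 1 TCF/LEF core and 0.0655% hold 3 or more, and 17.5% hold at least 1 E-box of this type and 0.464% hold 3 or more. Of the windows of genes called higher in the clone, 9.90% hold a TCF/LEF core (10 of 101), and of those of genes called lower, 22.9% hold the E-box (8 of 35). Several windows can belong to 1 gene. A match describes letters only, and no binding was measured.

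*NUP58* itself was lower in the clone. Its FPKM was 25.3, 23.3 and 24.3 in clone replicates 1, 2 and 4, and 28.7 to 50.3 in the controls, with a median of 45.4. The clone libraries lay below all controls and close to each other. The controls split by replicate number, with a mean of 31.2 for number 1, 44.6 for number 2 and 49.2 for number 4, so that the log2 fold change within a number was -0.28, -0.91 and -0.99. These values are a description, because *NUP58* was among the genes that led to leaving out number 3.

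**Figure D1:**
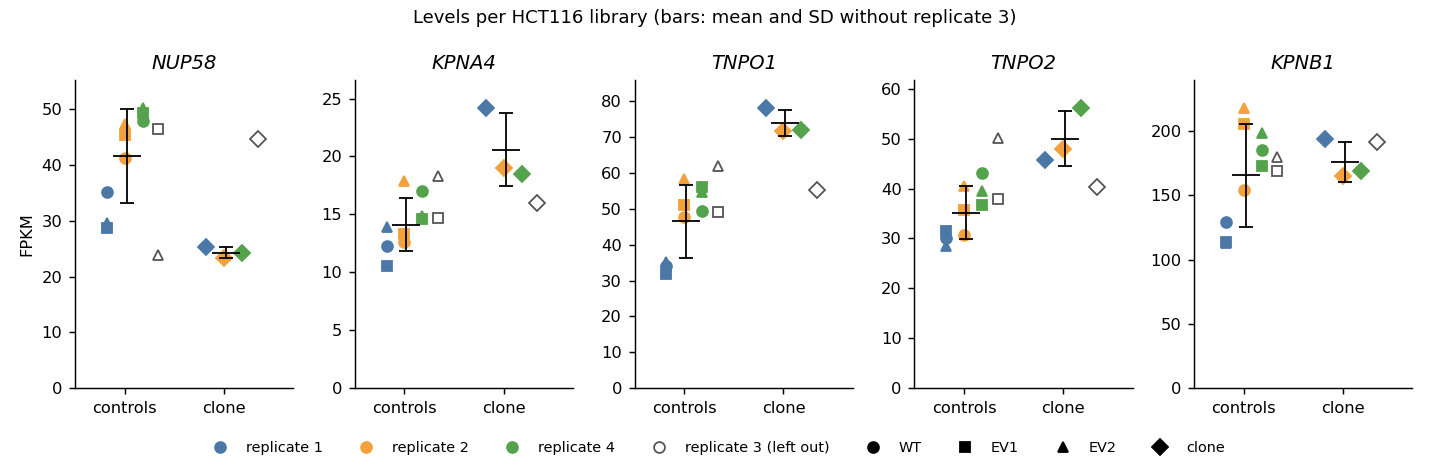
FPKM of NUP58, KPNA4, TNPO1, TNPO2 and KPNB1 in each HCT116 library, with controls on the left and the clone on the right of each panel, colour for the replicate number, shape for the title and open symbols for the libraries numbered 3, which are not in the bars (mean and SD, n = 9 controls and 3 clone). Among the 12 libraries, clone libraries lie below all controls for NUP58 and above all controls for KPNA4, TNPO1 and TNPO2, and the 3 controls of number 1 are the lowest controls for NUP58, TNPO1 and KPNB1.

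The other nucleoporins were compared to ask whether the rest of the pore moved with *NUP58*. Of 31 NPC genes besides *NUP58*, 0 of 31 tested had an adjusted p under 0.05 (limma), against 5.92% of all 13000 genes tested, and 5 had an unadjusted p under 0.05. Their log2 fold changes had a median of -0.25, where that of all genes was 0.02, and 26 of 31 were below 0. The lowest was NUP205 of the inner ring at -0.59 (adjusted p = 0.179), followed by NUP98 at -0.43 (adjusted p = 0.0801) and AAAS, a nucleoporin of the cytoplasmic face, at -0.41 (adjusted p = 0.0994). POM121 and POM121C, which anchor the pore in the membrane, were at -0.37 and -0.25 but are near-identical copies whose reads may be split. The median had different signs by replicate number: it was 0.21 against the controls of number 1, -0.39 for number 2 and -0.44 for number 4. Tested against the controls of a single number, 0 of the 31 fell for number 1, 14 for number 2 and 18 for number 4, where 4.01%, 19.2% and 29.5% of all genes passed in either direction.

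Of the transport receptors, transportin 1 and transportin 2 rose in the clone. They carry RNA-binding proteins and other cargo with a proline-tyrosine signal into the nucleus. *TNPO1* had an FPKM of 78.2, 71.6 and 72.1 in clone replicates 1, 2 and 4, and 31.9 to 58.2 with a median of 49.5 in the controls. *TNPO2* had 45.8, 48.0 and 56.2, against 28.5 to 43.2 with a median of 35.8. Both genes lay above every control in every clone library, as did 6.15% of all genes tested. The log2 fold change was 0.69 (SE 0.181, limma adjusted p = 0.0399) for *TNPO1* and 0.50 (SE 0.134, adjusted p = 0.0409) for *TNPO2*. For *TNPO1* the difference within replicate number 1 was 1.19, against 0.45 and 0.43 within numbers 2 and 4, while that of *TNPO2* was 0.60, 0.43 and 0.49. Both adjusted p-values lay close to the threshold. Without 1 library at a time they ran from 0.033 to 0.155 for *TNPO1* and from 0.031 to 0.237 for *TNPO2*, the highest without clone replicate 4.

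*KPNA4*, an importin alpha that binds classical import signals, had an FPKM of 24.2, 19.0 and 18.5 in the clone and 10.5 to 17.9 with a median of 13.9 in the controls. The groups did not overlap, and the log2 fold change of 0.52 (SE 0.145) had an adjusted p of 0.0502. *KPNB1*, the importin beta that carries importin alpha through the pore, had 194, 165 and 169 against 113 to 218 with a median of 173. Its groups overlapped, with a log2 fold change of 0.13 (SE 0.198, adjusted p = 0.738) and of 0.71, -0.20 and -0.13 within the numbers. In the exact two-sided permutation test over the 220 arrangements of the 12 libraries, p was 0.00909 for *KPNA4*, *TNPO1* and *TNPO2*, the smallest these arrangements can give, and 0.627 for *KPNB1*. Groups that do not overlap always give this smallest p, so it adds nothing to the lack of overlap. Over all genes tested, 10% did not overlap. The study names *KPNA4*, *TNPO1* and *TNPO2* for this clone, from RNA and protein, so these RNA values are no independent evidence. It names *KPNB1* for its HAP1 clones. The study also reports lower levels of NPC proteins that interact with NUP58 in this clone. Protein is not part of the data described here.

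Among 25 karyopherins tested, 2 rose and 1 fell, with a median log2 fold change of -0.08. Over all genes tested 3.62% rose and 2.29% fell, which is also the background of the Ran, mRNA export and lamina counts that follow. The gene that fell was *XPO7*, an exportin with a broad range of cargo, with 16.3, 16.6 and 19.3 in the clone and 19.6 to 28.5 in the controls (-0.45, SE 0.112, adjusted p = 0.0328). Of a list of 8 genes drawn up for the Ran cycle, 7 did not pass and 1 fell, *RCC2*, a relative of the Ran exchange factor RCC1. Its FPKM was 68.0, 66.0 and 60.8 in the clone and 79.1 to 101 in the controls, a change of -0.50 (SE 0.0911, adjusted p = 0.00724), and the difference was alike within the numbers at -0.47, -0.50 and -0.53. Of 18 mRNA export genes, 2 fell. *THOC6*, a subunit of the THO complex that couples transcription to export, had 26.3, 26.1 and 24.7 against 31.5 to 53.7 (-0.67, SE 0.126, adjusted p = 0.00881). *NXT1*, the partner of the export receptor NXF1, changed by -0.48 (adjusted p = 0.0364). Of a list of 15 genes of the lamina and the nuclear membranes, 1 rose. This was *SYNE2*, a giant nesprin that ties the nucleus to the cytoskeleton, with 8.85, 8.91 and 9.77 in the clone and 2.42 to 7.70 in the controls (0.90, adjusted p = 0.0313). Without the 2 controls of conflicting labels, *TNPO1*, *XPO7*, *NXT1* and *SYNE2* no longer passed, and *TNPO2*, *RCC2* and *THOC6* did. Within numbers 1, 2 and 4 the medians were 0.31, -0.20 and -0.20 for karyopherins and 0.19, -0.40 and -0.62 for the Ran list. For mRNA export they were 0.09, -0.32 and -0.27, and for the lamina 0.16, -0.04 and -0.15. Against number 1 alone 5 karyopherins rose and 1 fell, against number 2 alone 2 and 6, and against number 4 alone 1 and 7. In these fits 4.01%, 19.2% and 29.5% of all genes passed in either direction.

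Across the transcriptome, 769 of 13000 genes tested (5.92%) had an adjusted p under 0.05 and 150 (1.15%) also a fold change over 2, which is what called means here. Of the 769, 471 (3.62%) were higher and 298 (2.29%) lower. Of the 150, 114 (0.877%) were higher and 36 (0.277%) lower in the clone. Clone and control libraries did not overlap for 136 of the 150, where 10% of all genes tested did not overlap. Of these 136, 101 were higher and 35 lower, where the shares over all genes were 6.15% and 3.88%. All 150 moved the same way within each of the 3 replicate numbers, and 53 did so by over 2-fold each time (31 higher and 22 lower). The 150 were called on these same libraries. The lack of overlap, this agreement and the medians that follow come in large part from that choice and are no independent evidence. The median log2 fold change of the genes called higher was 0.86 within number 1, 1.39 within number 2 and 1.50 within number 4, and that of the genes called lower was -1.33, -1.21 and -1.38, where all genes tested had 0.03, 0.01 and 0.04. The genes nearest the fold threshold were *KRT20* and *VIM-AS1* inside, both at 1.002, and *PROS1* (0.998) and *TMEM63A* (0.991) outside. Leaving out a clone library cut the number called, to 84 without replicate 1, 78 without replicate 2 and 65 without replicate 4.

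**Figure D2:**
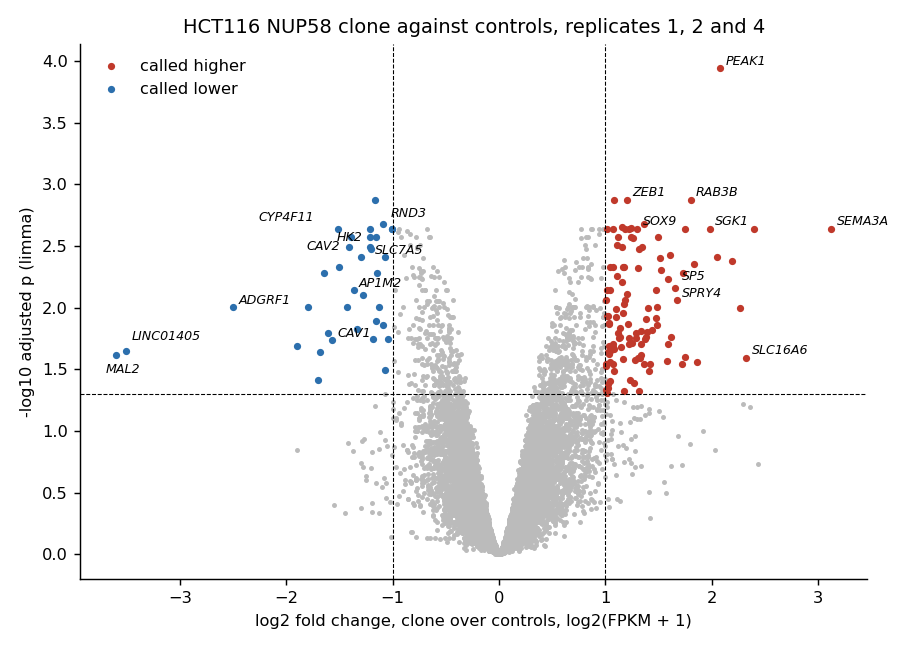
Log2 fold change of the clone over the controls on log2(FPKM + 1) (x axis) against -log10 of the limma adjusted p (y axis), 1 point per gene tested, with dashed lines at a fold change of 2 and an adjusted p of 0.05. Red points are the 114 genes called higher and blue points the 36 called lower, with PEAK1 at the smallest adjusted p (0.000114).

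The largest rise was that of *SEMA3A*, a secreted semaphorin that repels growing axons and vessels (chromosome 7, 83955777 to 84492724). Its FPKM was 24.6, 20.7 and 21.3 in the clone and 0.181 to 5.34 in the controls, with a median of 1.82. Every clone library stood well above every control, with a log2 fold change of 3.12 (SE 0.436, adjusted p = 0.00228) that was 2.81, 3.02 and 3.54 within the numbers. *PEAK1*, a pseudokinase scaffold of the cytoskeleton and of growth factor signaling (chromosome 15, 77100656 to 77420144), had 23.8, 27.8 and 24.1 against 3.79 to 7.67 with a median of 4.83. It changed by 2.08 (SE 0.172), with the smallest adjusted p of the genes called (0.000114), and by 1.94, 2.21 and 2.08 within the numbers. *SGK1*, a kinase induced by serum and glucocorticoids, had 12.3, 10.8 and 10.5 against 1.08 to 5.56 (1.98, SE 0.268, adjusted p = 0.00228). *RAB3B*, a small GTPase of regulated secretion, had 20.9, 21.3 and 33.4 against 4.25 to 8.68 (1.80, SE 0.206, adjusted p = 0.00134). *JAG1*, a Notch ligand, had 36.7, 37.2 and 36.4 against 7.84 to 21.0 (1.52, SE 0.242, adjusted p = 0.00393).

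Other large rises were *ADAM19*, a membrane metalloprotease, with 55.6, 65.0 and 45.3 against 4.79 to 28.6 (2.26), and *COL13A1*, a transmembrane collagen, with 12.2, 19.6 and 11.7 against 0.764 to 5.81 (2.19). *NGFR*, the p75 neurotrophin receptor, had 18.4, 20.3 and 17.4 against 2.10 to 8.64 (1.83). *SLC16A6*, a member of the monocarboxylate transporter family, had 21.4, 13.7 and 36.7 in the clone against 0.601 to 9.90 (2.33, adjusted p = 0.0255). *IQGAP2*, a scaffold that binds actin, had 3.20, 4.54 and 4.13 against 0.178 to 1.69 (1.53). *OLFM1* (2.05), *PRF1* (1.61), *TCN1* (1.60), *APOD* (1.59) and *CTHRC1* (1.58) were also higher, and *SPRY4* and *SP5*, among the 20 as well, are given with their lists. *HBA2* (2.39), *CNTNAP3* (1.75) and the processed pseudogene *RPL35P5* (1.73) share near-identical sequence with other genes and are uncertain. Of the 20 largest rises among called genes whose groups did not overlap, 14 kept an adjusted p under 0.05 whichever library was left out, among them *SEMA3A*, *PEAK1*, *SGK1*, *RAB3B* and *JAG1*.

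The largest falls were those of *MAL2*, a membrane protein of apical transport in epithelial cells, and *LINC01405*, a long noncoding RNA. *MAL2* had an FPKM of 2.46, 2.88 and 2.54 in the clone and 7.07 to 103 in the controls, with a median of 87.0 (-3.60, SE 0.840, adjusted p = 0.0239). *LINC01405* had 0, 0.963 and 0.0997 against 2.28 to 86.2 with a median of 16.0 (-3.51, adjusted p = 0.0226). In both the clone lay below a control group that itself spread over more than 10-fold. *CAV1* and *CAV2*, the caveolins that coat caveolae, fell together. *CAV2* had 27.0, 33.4 and 29.9 against 55.0 to 109 with a median of 90.0 (-1.41, SE 0.216, adjusted p = 0.00321), and *CAV1* had 63.3, 65.6 and 63.5 against 84.3 to 322 (-1.57, SE 0.347, adjusted p = 0.0184). *SLC7A5*, the large neutral amino acid transporter, had 102, 103 and 78.5 against 142 to 268 (-1.22, SE 0.177, adjusted p = 0.00269).

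*AP1M2*, whose promoter is shown above, had 14.72, 14.22 and 13.83 against 19.99 to 56.03 with a median of 42.5 (-1.37, SE 0.247, adjusted p = 0.00721), and *MISP* changed by -1.20 (adjusted p = 0.00335). *LAMB3*, a laminin chain of epithelial basement membranes, had 4.15, 5.03 and 3.66 against 7.26 to 17.8 (-1.28). *S100A14*, a calcium-binding protein of epithelia, had 24.25, 20.93 and 19.97 against 29.99 to 175.68 (-1.70, adjusted p = 0.0388). *CA2*, a carbonic anhydrase, had 3.84, 4.51 and 2.48 against 5.91 to 22.7 (-1.61, adjusted p = 0.0159). *CYP4F11* (-1.52), *ARTN* (-1.39), *CPA4* (-1.64), *GALNT3* (-1.33), *LYL1* (-1.30), *FABP6* (-1.69), *TNNC1* (-1.43), *GFY* (-1.90), *SCARNA12* (-1.80) and *CTD-2006C1.2* (-1.50) fell as well. Of the 20 largest falls chosen in the same way, 7 kept an adjusted p under 0.05 whichever library was left out, among them *CAV2*, *SLC7A5*, *CYP4F11* and *ARTN*.

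**Figure D3:**
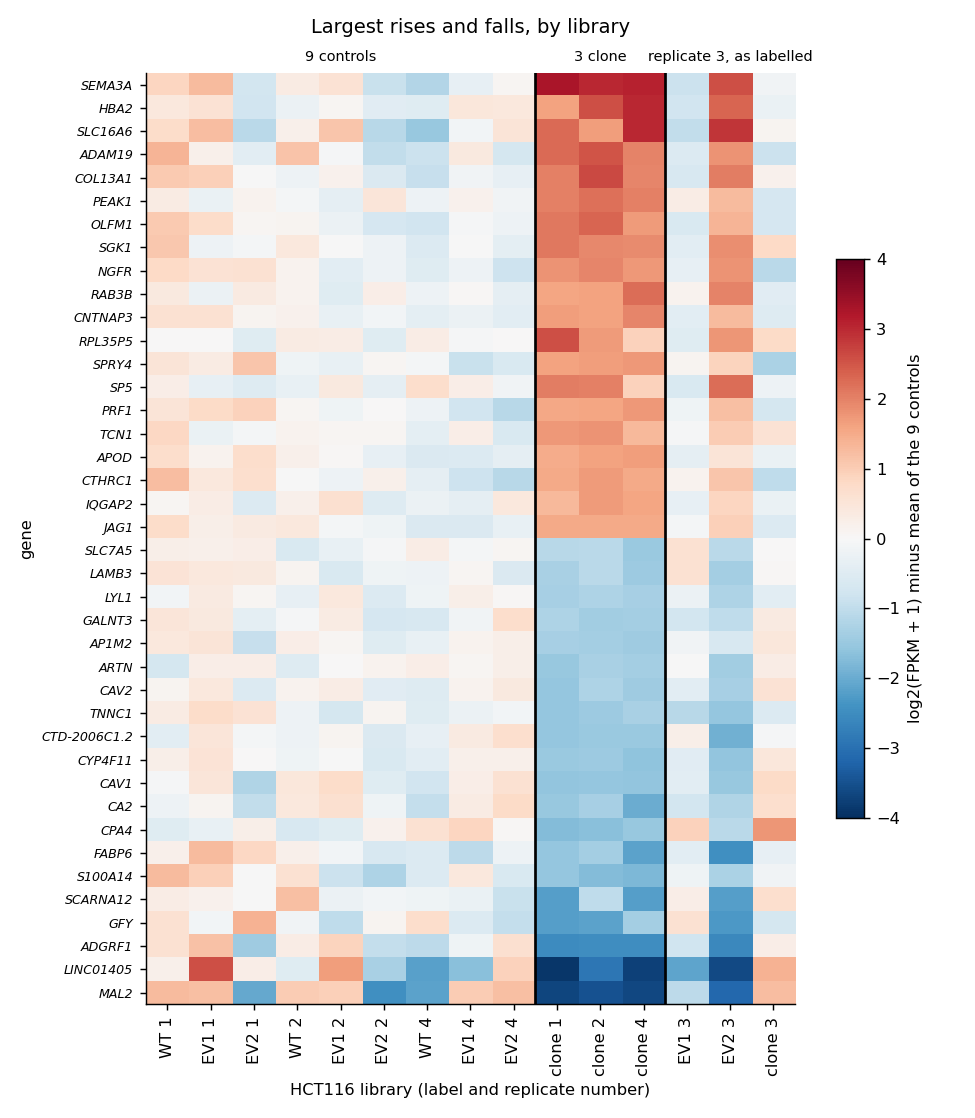
Log2(FPKM + 1) minus the mean of the 9 controls (colour, from -4 to 4) for the 20 largest rises and 20 largest falls (y axis) in each HCT116 library (x axis). The 3 clone libraries are alike, MAL2 and ADGRF1 are low in the controls EV2 1, EV2 2 and WT 4, and of the libraries numbered 3 the one labelled EV2 has the colours of the clone.

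The controls were not alike in some of these genes. *MAL2* was at 9.67 in EV2 replicate 1, 7.07 in EV2 replicate 2 and 9.05 in WT replicate 4, and at 84.3 to 103 in the other 6 controls. *ADGRF1*, an adhesion G protein-coupled receptor, was at 5.43, 7.87 and 7.23 in the same 3 libraries and at 14.2 to 37.7 in the others. *CAV1* was at 84.3, 138 and 112 in them and at 185 to 322 in the others, and *AP1M2* at 19.99, 27.51 and 30.77 and at 40.30 to 56.03. The clone lay below both sets for each gene, with *ADGRF1* at 1.99, 2.09 and 2.03 (-2.50, SE 0.481, adjusted p = 0.00994). The library titled WT replicate 4 is one of the 2 whose genotype label, Cas9 without gRNA, contradicts its title. For EV2 as titled against the other controls, limma called 0 of 12955 genes, with 289 at an unadjusted p under 0.05. That grouping cuts across the split, since EV2 replicate 4 had *MAL2* at 101 and WT replicate 4 was among the other controls. It therefore cannot show that the controls were alike. Within numbers 1 and 2 alone 45 of 13054 genes were called (0.345%). Some rises showed the split too. On log2(FPKM + 1) minus the control mean, EV2 replicates 1 and 2 and WT replicate 4 were the lowest controls for *SEMA3A* (-0.74, -0.9 and -1.17). They were also the lowest for *SLC16A6* (-1.08, -1.1 and -1.53), but not for *PEAK1* (0.14, 0.48 and -0.21). The part of this split in the falls and rises was not tested.

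Among Wnt targets, 15 of 22 could be tested, and 4 rose and 1 fell (all genes: 3.62% rose, 2.29% fell), with a median log2 fold change of 0.37. *SOX9*, a transcription factor of intestinal crypts, had 78.6, 74.2 and 82.9 against 24.5 to 41.5 with a median of 31.9 (1.30, SE 0.174, adjusted p = 0.00228). *SP5*, which holds the 3 TCF/LEF cores shown above, had 5.81, 5.67 and 2.15 against 0.154 to 1.73 (1.65, SE 0.296, adjusted p = 0.00686). *NOTUM*, a secreted Wnt inhibitor, had 19.1, 26.3 and 19.3 against 4.72 to 19.6 (1.23, adjusted p = 0.0388), and its highest control overlapped the clone. *TCF7* rose by 0.42 (adjusted p = 0.0485). *MYC*, also a Wnt target, went the other way, at 135, 136 and 112 against 154 to 240 (-0.59, adjusted p = 0.0400).

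Of a list of 26 immediate early, AP-1 and MAPK feedback genes, 5 rose and 1, *MYC*, fell (median 0.29), where 3.62% and 2.29% of all genes did. The median was -0.02, 0.51 and 0.23 within numbers 1, 2 and 4. Against number 1 alone 1 rose and 3 fell, against number 2 alone 8 and 1, and against number 4 alone 13 and 2. In these fits 4.01%, 19.2% and 29.5% of all genes passed in either direction. *SPRY4*, which dampens receptor tyrosine kinase signaling, had 113, 117 and 121 against 19.2 to 78.7 with a median of 34.3 (1.67, SE 0.311, adjusted p = 0.00872). *DUSP4*, a phosphatase of MAP kinases, had 55.1, 65.0 and 59.5 against 12.3 to 47.3 (1.32, adjusted p = 0.0254). *DUSP6* had 381, 325 and 272 against 66.3 to 316 (1.42, adjusted p = 0.0284), where EV2 replicate 1 was the control at 316. *SPRY2* rose by 0.71 (adjusted p = 0.00978) and *ETV5* by 0.43 (adjusted p = 0.0341). *LIF*, a cytokine of the interleukin 6 family, was the 1 gene of 12 tested cytokine and NF-kB targets that rose, with 51.0, 50.8 and 65.9 against 10.5 to 35.7 (1.37, adjusted p = 0.0179).

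Of 12 mesenchymal genes tested, 3 rose and 0 fell (all genes: 3.62% rose, 2.29% fell), with a median of 0.54. *ZEB1*, a repressor of epithelial genes, had 3.87, 4.52 and 4.33 against 1.08 to 1.71 with a median of 1.18 (1.20, SE 0.138, adjusted p = 0.00134). *TWIST1* (1.15, adjusted p = 0.0207) and *SPARC* (1.86, adjusted p = 0.0276) also rose, but each overlapped 1 or more controls and was lost without the 2 controls of conflicting labels. The median was -0.07, 0.40 and 0.81 within the numbers. Of 20 epithelial genes, 3 fell and 1 rose, against the same shares over all genes, with a median of -0.11. Of the 20, 9 were above 0, and the log2 fold changes ran from -0.95 to 1.68, where the gene at 1.68 did not pass. The median was -0.32, 0.0 and -0.02 within the numbers. *ESRP1*, an epithelial splicing regulator, had 28.4, 27.7 and 32.2 against 46.0 to 76.0 (-0.95, SE 0.134, adjusted p = 0.00242), and its relative *ESRP2* changed by -0.61 (adjusted p = 0.0419). *EPCAM*, an epithelial adhesion molecule, had 112, 117 and 102 against 132 to 253 (-0.76, adjusted p = 0.0265). *DSP*, desmoplakin of the desmosome, rose, with 38.5, 36.5 and 47.0 against 20.5 to 30.9 (0.66, adjusted p = 0.00752). Of 18 intestinal differentiation genes only 3 could be tested, of which *KRT20* rose (1.00, adjusted p = 0.0295) from a median of 0.480 in the controls.

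Of 24 interferon-stimulated genes tested, 3 rose and 0 fell (median 0.29), where 3.62% of all genes rose and 2.29% fell. *IFI6* had 23.4, 22.5 and 29.6 against 7.28 to 16.7 (1.12, adjusted p = 0.0177), and *DDX58*, the RNA sensor RIG-I, rose by 0.58 (adjusted p = 0.0419). Of 15 genes of MHC class I presentation 1 passed, *HLA-E*, with 97.5, 110 and 110 against 37.7 to 96.0 (0.90, adjusted p = 0.0485), and HLA genes may share reads.

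In the metabolic lists few genes passed, where 3.62% of all genes rose and 2.29% fell. *HK2*, hexokinase 2, had 5.00, 5.19 and 4.13 against 8.48 to 15.6 (-1.16, SE 0.169, adjusted p = 0.00269), while *SLC2A1*, the glucose transporter GLUT1, had 148, 147 and 137 against 43.3 to 113 (0.94, adjusted p = 0.0428). They were the only 2 of 26 glycolysis and hypoxia genes to pass. Of 17 NRF2 targets, 3 fell. The clearest was *TXNRD1*, thioredoxin reductase, with 92.1, 87.5 and 80.7 against 134 to 207 (-0.90, SE 0.141, adjusted p = 0.00373), with *SRXN1* at -0.60 (adjusted p = 0.0202) and *ME1* at -0.49 (adjusted p = 0.0332). Of 21 targets of ATF4, the factor of the amino acid response, 3 fell. They were *SLC7A5*, *SHMT2* of mitochondrial serine breakdown, with 90.3, 114 and 91.3 against 130 to 185 (-0.71, adjusted p = 0.00501), and *MTHFD2* (-0.57, adjusted p = 0.0325).

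The replicate numbers of the controls differed in the ATF4 targets. Against the controls of number 1 alone 16 of 21 fell, against number 2 alone 2 and against number 4 alone 10, where 4.01%, 19.2% and 29.5% of all genes passed in either direction. The median was -0.93, -0.02 and -0.48 within the numbers. *ASNS*, asparagine synthetase, chosen after its values were seen, had control means of 270, 88.9 and 112 for numbers 1, 2 and 4, and 75.3, 71.3 and 56.3 in the clone. Cell cycle genes split the other way. Of 26 mitosis genes 0 passed in the 12 libraries (limma; 4 with an unadjusted p under 0.05), with a median of -0.48, and the median was 0.43 within number 1, -0.80 within number 2 and -1.11 within number 4. *CCNB1*, cyclin B1, had 117, 100 and 78.5 in the clone and control means of 81.2, 196 and 239, and *CDC20*, an activator of the anaphase-promoting complex, had 129, 119 and 92.0 and control means of 102, 227 and 290. Against the controls of numbers 2 and 4 alone 23 and 25 of the 26 fell, against number 1 alone 0, with the same shares over all genes (19.2%, 29.5% and 4.01%), which also stand beside the DNA replication counts. Of 30 DNA replication genes, 1 fell in the 12 libraries, *CDT1*, a licensing factor, with 35.0, 39.6 and 32.4 against 44.9 to 69.1 (-0.70, adjusted p = 0.00724), and 24 fell against number 2 alone and 24 against number 4 alone.

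**Figure D4:**
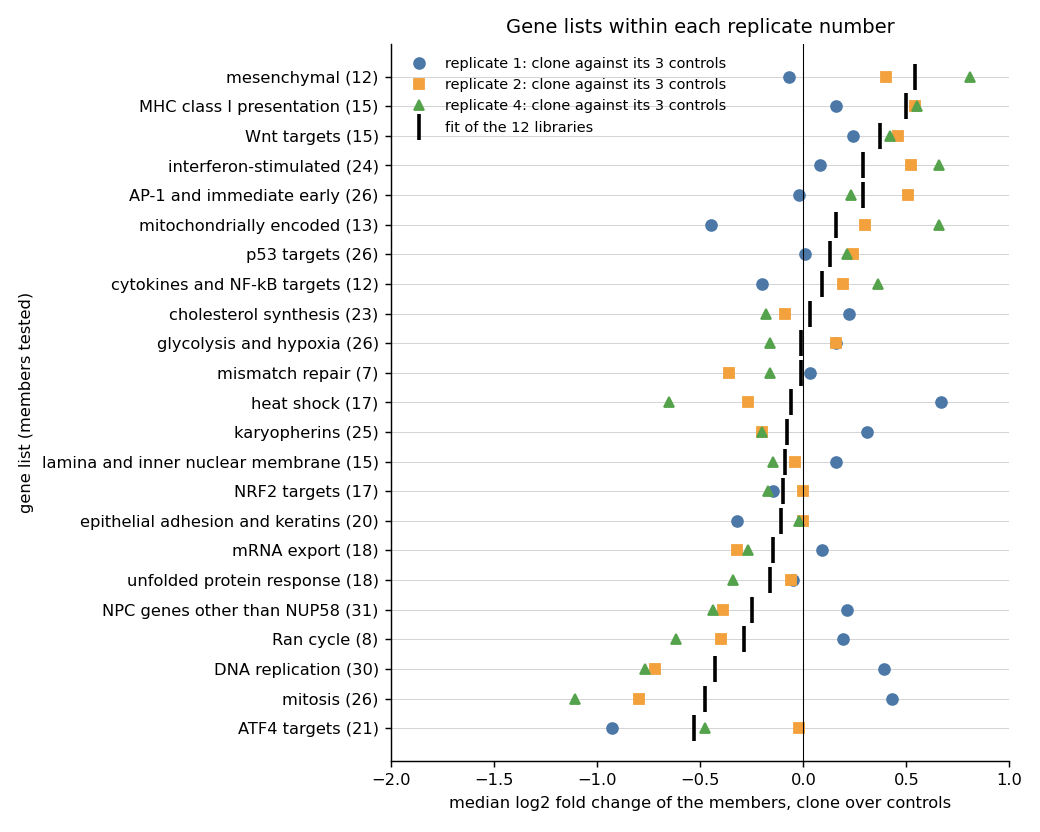
Median log2 fold change of each gene list (y axis, members tested in parentheses), clone over the 3 controls of the same replicate number (coloured symbols) and in the fit of the 12 libraries (black bar). Mitosis, DNA replication and NPC genes are above 0 for number 1 and below 0 for numbers 2 and 4, while Wnt targets and MHC class I genes are above 0 for all 3.

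Among the other lists, 1 of 26 p53 targets fell (*TRIAP1*, -0.59, adjusted p = 0.0176; median 0.13), and 0 of 18 unfolded protein response genes (median -0.16), 0 of 17 heat shock genes (-0.06), 0 of 23 cholesterol synthesis genes (0.03), 0 of 7 mismatch repair genes (-0.01), 0 of 3 tested blood lineage genes (0.11) and 0 of 13 mitochondrially encoded genes (0.16) passed, with 1, 1, 4, 2, 0 and 0 at an unadjusted p under 0.05. Over all genes tested 3.62% rose and 2.29% fell. The heat shock genes split by replicate number, with medians of 0.67, -0.27 and -0.65 within numbers 1, 2 and 4. Of these 17 genes, 7 rose against number 1 alone, 7 fell against number 2 alone and 11 fell against number 4 alone. In those fits 4.01%, 19.2% and 29.5% of all genes passed in either direction. All lists were chosen with earlier results of these data known. Without the 2 controls of conflicting labels, *NOTUM*, *TCF7*, *DUSP4*, *DUSP6*, *ETV5*, *EPCAM*, *ESRP2*, *KRT20*, *DDX58*, *HLA-E*, *MTHFD2*, *SLC2A1*, *SRXN1*, *ME1* and *TRIAP1*, and of the largest changes *SLC16A6*, *CTHRC1* and *S100A14*, had an adjusted p above 0.05. Without 1 clone library, 11 to 14 of the list members outside the pore and karyopherin lists passed, against 37 with all 12 libraries. *SOX9*, *ZEB1*, *ESRP1*, *TXNRD1* and *HK2* kept an adjusted p under 0.05 whichever library was left out.

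The choice of control number changed how many genes were called. Against the controls of number 1 alone 142 genes were called (1.08%; 52 higher and 90 lower), against number 2 alone 326 (2.5%; 244 and 82) and against number 4 alone 646 (4.99%; 483 and 163). The share higher was 36.6% against number 1, compared with 76.0% in the 12 libraries. Of the 150, 63 were called the same way against number 1, 137 against number 2 and 138 against number 4, and 50 against each number alone (30 higher and 20 lower).

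HAP1, a near-haploid line of chronic myeloid leukemia origin, was edited at the same gene. Its 4 WT libraries and the 24 libraries of its 6 clones, C1 to C6, were not used to choose the HCT116 libraries. In HAP1, 780 of 13189 genes (5.91%) had an adjusted p under 0.05 in the mean of the clones against WT, 2.83% higher and 3.09% lower. Each clone had its own mean in this fit, and WT is 1 line. The p-values therefore measure the spread between libraries of the same clone or line, and not that between the 6 clones. Of the 150 genes called in HCT116, 100 were tested in HAP1, 10 passed there the same way, 2 the other way, and 61.0% had the same sign, where 56.1% of the 11682 genes tested in both lines did. *RASSF1*, a Ras association tumor suppressor, rose in both. It had 35.4, 36.3 and 30.2 in the HCT116 clone against 11.9 to 18.4 (1.08, SE 0.124, adjusted p = 0.00134), and 12.97 ± 0.740 (SD, n = 4) in HAP1 WT and 41.2 ± 14.1 (SD, n = 24 libraries of 6 clones) in the HAP1 clones (1.52, adjusted p = 1.75e-05). *SEMA3A* rose in HAP1 by 1.07 (adjusted p = 0.0242), from 1.13 to 4.33, and *IQGAP2* by 0.78 (adjusted p = 0.00123).

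**Figure D5:**
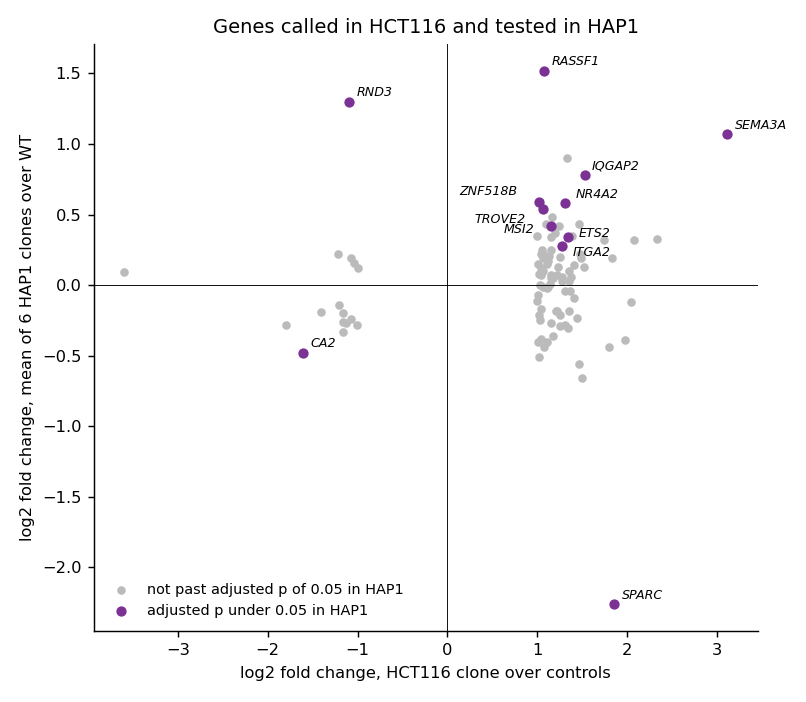
Log2 fold change of the HCT116 clone over its controls (x axis) against that of the mean of 6 HAP1 clones over WT (y axis) for the 100 genes called in HCT116 and tested in HAP1, with those of adjusted p under 0.05 in HAP1 named. RASSF1 and SEMA3A are higher in both lines, CA2 is lower in both, and SPARC and RND3 lie in opposite quadrants.

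The difference between the 2 lines was tested directly in 13653 genes, of which 269 (1.97%) passed with a difference over 1, 194 (1.42%) above and 75 (0.549%) below HAP1. This fit too gave each HAP1 clone its own mean, so its p-values leave out the spread between the HAP1 clones. *SPARC*, a matricellular protein, had 6.85, 5.69 and 3.02 in the HCT116 clone against a control median of 0.551, while in HAP1 it was 18.2 ± 4.33 (SD, n = 4) in WT and 3.44 ± 2.59 (SD, n = 24 libraries) in the clones. The difference was 4.12 (SE 0.425, adjusted p = 2.46e-07). *RND3*, a small GTPase that acts on the actin cytoskeleton, went the other way, at 2.79, 2.94 and 2.78 against 5.71 to 9.25 in HCT116 (-1.09, SE 0.134, adjusted p = 0.00209) and 1.30 higher in the HAP1 clones, a difference of -2.38 (adjusted p = 4.74e-05). *SOX9*, *COL13A1* and *CYP4F11* had WT means of 0.0406, 0.132 and 0.0342 FPKM in HAP1, so that their differences, 1.28, 2.20 and -1.48, came with hardly any transcript in HAP1. For *TNPO1*, *TNPO2* and *KPNA4* the HAP1 changes were 0.51, 0.48 and 0.54, and the differences between the lines, 0.17 (SE 0.241), 0.02 (SE 0.188) and -0.02 (SE 0.178), had adjusted p-values of 0.749, 0.969 and 0.965, which does not show that the lines act alike.

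Chromosomes showed no large shift. The median log2 fold change per chromosome ran from -0.062 for chromosome 18 (179 genes) to 0.057 for chromosome 21 (111 genes). Of 11768 overlapping runs of 50 neighbouring genes, the lowest median was -0.17, from *DDX39A* to *GTPBP3* on chromosome 19, and the highest 0.23, from *GSTM4* to *PTGFRN* on chromosome 1. These are described without a test.

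The 3 libraries left out were set beside the 150 genes, as a description. The library labelled clone replicate 3 was nearer the clone mean than the control mean in 4 of the 150 genes (2.7%), the library labelled EV1 replicate 3 in 5 (3.3%) and the library labelled EV2 replicate 3 in 123 (82.0%). *MAL2* was at 102 in the library labelled clone, 20.3 in that labelled EV1 and 3.97 in that labelled EV2.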

How the data were processed

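The authors checked reads with FastQC, trimmed adaptors, aligned them with STAR at default settings to GRCh38 (Ensembl GRCh38.p13) and deposited FPKM values from RSEM with no further normalization. The deposited FPKM table holds 57507 genes in 47 libraries, and tool versions are not given in the sources used here. FPKM values are not counts, so no count model was used. Relative depth was read from the steps of low values.

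Genes whose FPKM averaged 1 or more were kept, and log2(FPKM + 1) was tested with limma 3.58.1 (R 4.3.3; lmFit, eBayes with a mean-variance trend), two-sided, with Benjamini-Hochberg adjustment. Called means an adjusted p under 0.05 and a fold over 2. HCT116 and HAP1 were compared by 1 contrast in a joint fit. Other steps used Python 3.11.15, numpy 2.4.6, pandas 2.3.3, scipy 1.17.1 and matplotlib 3.10.9, and the scripts were tested on simulated data.

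Members and gene lists were chosen with earlier results of these data known. Genes named were *NUP58*, 4 karyopherins, the 20 largest rises and 20 largest falls among called genes without overlap, up to 4 members per list (those that passed, otherwise the most abundant), up to 10 genes called the same way in HAP1 and the 10 of smallest p for the difference. The NPC genes given with values, *ASNS*, *MISP* and list members beyond 4 that passed were chosen after their values were seen. Alternatives changed the controls, filter, pseudocount, scaling, trend and block, and left out each library in turn. One member of the interferon-stimulated list is counted but not reported here by name.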

Additional observations from a re-analysis of the deposited data

Results flagged for a closer look

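In 78 genes examined, 1 control stood apart from the other 8 by Dixon's gap criterion (0.493 for 9 samples) in 5, and chance flags about 1 in 20 groups. *SGK1* was at 5.56 FPKM in WT replicate 1 (next highest control 3.08), *TCN1* at 2.18 in WT replicate 1 (1.14), *SPARC* at 4.71 in WT replicate 1 (1.66), *SCARNA12* at 9.52 in WT replicate 2 (4.59) and *DUSP6* at 316 in EV2 replicate 1 (186).

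The clone effect differed between HCT116 and HAP1, by limma's test of the difference (log2, HCT116 minus HAP1), for these named genes. HCT116 lay above HAP1 for *SPARC* (4.12, adjusted p = 2.46e-07), *SGK1* (2.37, 5.17e-07), *RAB3B* (2.24, 3.56e-06), *COL13A1* (2.20, 1.98e-05), *SEMA3A* (2.05, 0.0114), *PEAK1* (1.76, 7.58e-07), *LRP8* (1.47, 4.83e-06), *SOX9* (1.28, 3.56e-06), *CMTM6* (1.13, 7.8e-05), *ETS2* (1.00, 0.0283), *ITGA2* (1.00, 0.0167) and *MSI2* (0.73, 0.0101). It lay below for *RND3* (-2.38, 4.74e-05), *CYP4F11* (-1.48, 1.09e-06) and *CA2* (-1.13, 0.0179).

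In the libraries numbered 3, which the 12-library comparison left out, the library labelled EV2 was nearer the clone mean in 123 of the 150 called genes, that labelled clone in 4 and that labelled EV1 in 5. Whether these labels were exchanged was not tested beyond these values.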

How the results depend on the processing

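With all 15 HCT116 libraries the 150 calls became 0, the 769 genes of adjusted p under 0.05 became 0, the 175 at p under 0.01 and 2-fold became 23, the 3 NPC and karyopherin genes that passed became 0, the 37 of the other lists 0 and the 269 differences from HAP1 79. *TNPO1* was then at 0.54 (adjusted p = 0.332) and *TNPO2* at 0.37 (0.383). Against number 2 alone these counts were 326, 2504, 327, 22 and 141, and against number 4 alone 646, 3821, 637, 26 and 191. Number 1 alone gave 6 NPC and karyopherin genes, *KPNA4* at 0.70 (0.0409) and *KPNB1* at 0.56 (0.0299), and number 4 alone *TNPO2* at 0.32 (0.0587). The 7 controls without a label conflict gave 407 genes of adjusted p under 0.05, 1 NPC and karyopherin gene, 18 of the other lists and *TNPO1* at 0.75 (0.0550). Controls titled EV2 only gave 199, 0 and 21, with 287 at p under 0.01, *TNPO1* at 0.61 (0.131) and *TNPO2* at 0.47 (0.167). With 14 libraries 1 NPC and karyopherin gene passed, *TNPO1* at 0.64 (0.0538) and *TNPO2* at 0.45 (0.0838). Without the filter 1 passed (*TNPO1* 0.69, 0.0738; *TNPO2* 0.50, 0.0619), and scaled to TPM 0 (*TNPO1* 0.69, 0.0721; *TNPO2* 0.51, 0.0699). *TNPO2* was at 0.50 (0.0510) without a trend and 0.48 (0.0515) scaled by median ratios. A pseudocount of 0.1 gave 264 genes at p under 0.01. EV2 within numbers 1 and 2 gave 45 calls. The cause of these changes was not tested. No named gene that passed its test changed sign under any alternative in which it was tested. Without clone replicate 2, 144 of the 150 called genes kept their sign, and the others changed sign or were not tested in that fit. *KPNB1*, which did not pass, was at -0.11 (0.605) against number 2 alone and -0.07 (0.616) against number 4 alone, and the calls against number 1 alone were 52 higher and 90 lower.

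Same-numbered clone and controls did not clearly deviate together (r = -0.19, 0.102 and -0.028). With 3 clone libraries these values cannot show whether the numbers pair the clone with the controls. The controls of a number did go together in numbers 1 (r = 0.21 to 0.56) and 4 (0.11 to 0.42) but not in number 2 (-0.11 to 0.16), while the test takes the 9 controls as independent. With the replicate block 180 genes were called and 1335 had an adjusted p under 0.05, 6 NPC and karyopherin genes and 63 of the other lists passed, and *KPNA4* was at 0.52 (0.0435).

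Leaving out 1 library at a time gave 65 to 191 calls, 144 to 1087 genes of adjusted p under 0.05, 155 to 220 at p under 0.01, 0 to 6 NPC and karyopherin genes, 11 to 44 of the other lists, 196 to 243 differences from HAP1, 0 to 0 calls for EV2 and a chromosome 18 median of -0.068 to -0.035. *KPNA4* ranged from 0.40 to 0.58, *TNPO1* from 0.63 to 0.73, *TNPO2* from 0.42 to 0.56 and *KPNB1* from 0.05 to 0.18. FPKM carry no absolute depth, so no counting interval was given.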
